A study of Mus musculus with 6 samples.

Results

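Transcripts of 38 genes of homologous recombination and DNA repair were followed in mouse lung ILC2 (group 2 innate lymphoid cells), which lack antigen receptors and are a source of type 2 cytokines. The genes were taken by symbol from a list of recombination, Fanconi, end-joining, mismatch repair and checkpoint genes, and all 38 were among the 23183 genes of each library. Wild-type primary lung ILC2 were cultured for 24 h with IL-2, IL-7 and IL-33 at 10 ng/ml in both groups. The IgG2b group (3 libraries) received an isotype control antibody and the DTA-1 group (3 libraries) an agonist antibody against GITR, a TNF receptor family member encoded by Tnfrsf18. No label ties the libraries to separate mice or cultures, so p-values measure the spread between these libraries, which may be technical. The comparison asks how GITR engagement alters transcripts of cytokine-activated ILC2, here those that mend broken or stalled DNA.

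Homologous recombination copies a break from the sister chromatid. The MRN complex and its partners trim the broken end, BRCA1, PALB2 and BRCA2 prepare the single-stranded DNA for strand exchange, and helicases and nucleases take the joined molecules apart afterwards. The Fanconi anaemia proteins open crosslinks between the strands and hand them to recombination, while the kinases ATR and ATM signal damaged or stalled DNA to the checkpoint kinases CHEK1 and CHEK2. Many of these genes are transcribed mainly in S and G2 phase, when a sister chromatid is at hand, while the end-joining factors Ku70 and Ku80 are made throughout the cycle.

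Levels are in FPKM, fragments scaled to transcript length and to library depth, the unit taken for the deposited values. Libraries held between 18900000 and 20600000 fragments, as estimated from the steps between low values. All 13 ILC2 markers checked reached 1 FPKM in at least 3 libraries. Of 47 markers of other cell types in the tables, 7 did (Cd3g, Lck, Cd79b, Cd68, Kit, Epcam and Pecam1), while the defining T cell gene Cd3e was at most 0.937 FPKM and Csf1r and Sftpc at or below 0.0864. The highest of the detected ones were Pecam1, between 19.9 and 43.8 FPKM, and Kit, between 5.52 and 16.6. Pecam1 was 1 of 8 markers of lung epithelium, endothelium and fibroblast. Of these 8, 2 were detected, and the endothelial gene Cdh5 was at most 0.0117 FPKM. The ILC2 markers summed to between 6774 and 7997 FPKM with IgG2b and between 10420 and 12041 with DTA-1, with the cytokine genes Il5 and Il13 as its largest parts there. The other 11 summed to 3047, 3125 and 2787 FPKM with IgG2b and to 2213, 2567 and 2589 with DTA-1, lower without overlap; Klrg1, an ILC2 surface receptor, stood at 97.0, 115 and 79.8 FPKM against 10.5, 43.6 and 48.1. The summed T cell list, 7 genes of which Cd3g and Lck reached 1 FPKM, lay between 15.7 and 17.2 FPKM with IgG2b and between 11.7 and 12.2 with DTA-1, and the part of these marker differences in the results was not tested. The target gene Tnfrsf18 measured 170 ± 27.8 FPKM with IgG2b and 203 ± 46.8 with DTA-1 (SD, n = 3). IgG2b replicate 1 stood apart in proliferation: 26 genes of G2 and mitosis stood there at 1.2 on average, as log2(FPKM + 1) relative to their mean over the 6 libraries, against 0.17 and 0.06 in IgG2b replicates 2 and 3. Counts of the members, of their role groups and of several other lists, and the differences of several members, are therefore also given without it.

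Most of the 38 recombination and repair genes were lower with DTA-1, but none passed the test over all genes. These genes were chosen with earlier results of these data known. Of the 38, 35 had a log2 fold change below 0 and 3 above it, and the median was -0.52 against 0.01 over all 10501 genes tested. Differences are DTA-1 minus IgG2b on log2(FPKM + 1), with the SE of the limma fit. At an unadjusted limma p under 0.05, 24 members were lower and none higher, where 7.73% of all tested genes were lower and 6.22% higher. In 24 members every DTA-1 library lay below every IgG2b library, against 10.5% of all tested genes, and in none did every DTA-1 library lie above, against 11.2%. The 2 sets of 24 share 22 genes. The smallest adjusted p among the members was 0.0817, for Rad54l, and 0.0381% of all tested genes passed the threshold of 0.05. In these bulk libraries, fewer cells of a type (such as cycling cells) and less RNA per cell cannot be told apart.

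The typical member stood at 64.5% of its IgG2b mean with DTA-1, as the median over the 38. IgG2b replicate 1 was the highest of all 6 libraries for 29 members, IgG2b replicate 2 for 7, and no member was highest in IgG2b replicate 3. DTA-1 replicate 2 was the lowest for 18 members. The spread was wider with the isotype in 37 of 38 members, with a median coefficient of variation of 22.3% against 8.62% with DTA-1, while over all tested genes these medians were 15.7% and 9.30%. Without IgG2b replicate 1 the median difference was -0.35, 33 members lay below 0, and 21 were lower at an unadjusted p under 0.05, where 7.10% of all genes then were. The 24 genes without overlap lie below IgG2b replicates 2 and 3 alone by definition, and no further member did so. Without that library, the log2 fold change was -0.87 for Clspn, -0.78 for Rad51ap1, -0.75 for Rad54l, -0.60 for Chek1, -0.55 for Bard1 and -0.49 for Brca1. By role, 9 of 10 BRCA group genes, 3 of 9 Fanconi genes, 4 of 6 resection genes, 3 of 6 checkpoint genes, 1 of 3 end-joining genes and 1 of 4 mismatch and single-strand break repair genes were then lower at an unadjusted limma p under 0.05, with medians of -0.50, -0.21, -0.42, -0.36, -0.13 and -0.24.

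**Figure D1:**
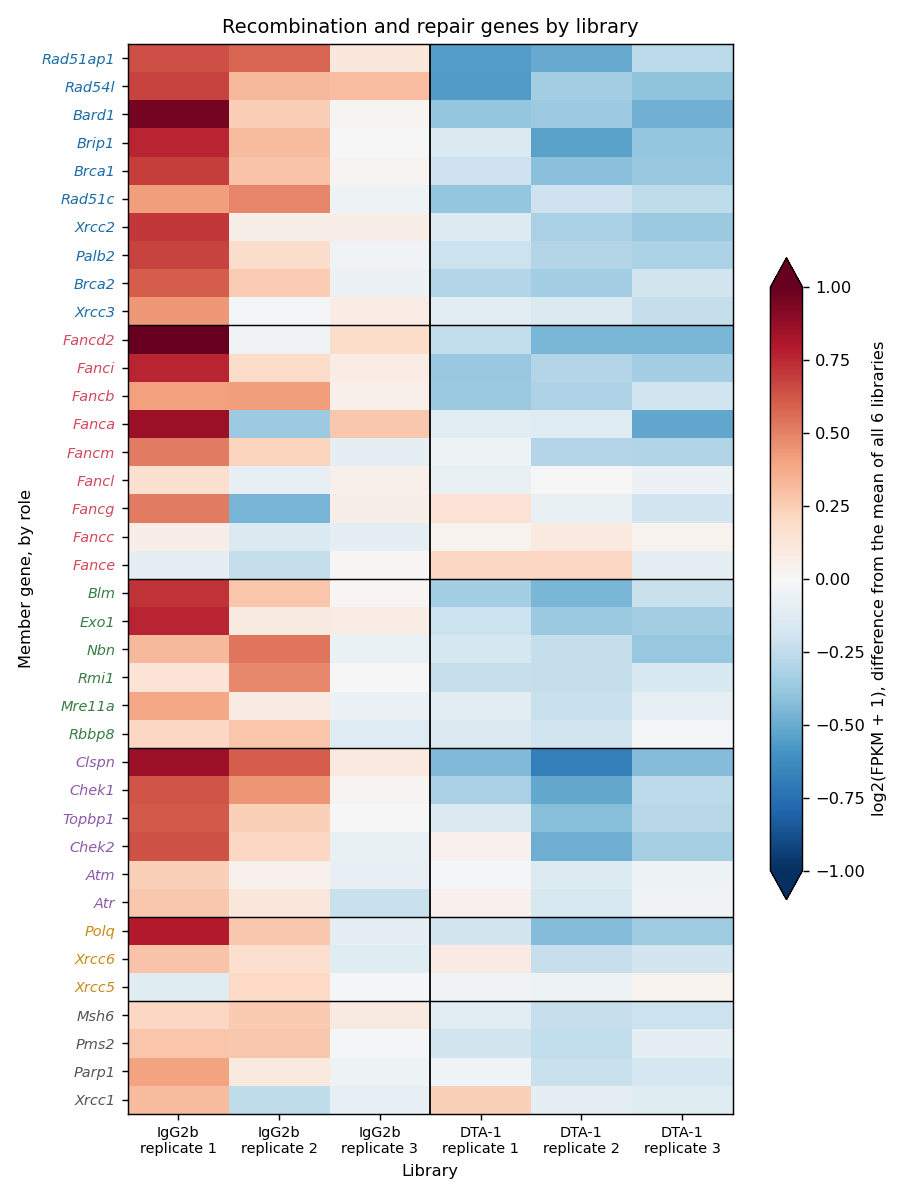
Level of each of the 38 genes (rows, grouped by role and coloured as in the plot of differences) in each library (columns), as log2(FPKM + 1) minus the gene's mean over all 6 libraries; red is above and blue below that mean, and colours stop at 1 in either direction. IgG2b replicate 1 is the reddest column, with 29 of 38 genes at their highest, and the DTA-1 columns are blue for most genes, with Fancc and Fance (replicates 1 and 2) among the exceptions.

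The BRCA group, which prepares broken DNA for strand exchange, was lower nearly throughout: 9 of its 10 members were lower at an unadjusted limma p under 0.05 and all 10 lay lower without overlap, with a median log2 fold change of -0.62. Rad54l (chr4:116094264-116123690, GRCm38), which encodes a motor protein that acts in the search for and invasion of the template, measured 20.8, 16.1 and 15.9 FPKM in the IgG2b libraries and 8.23, 9.80 and 9.35 in the DTA-1 libraries. The groups were clearly apart and the log2 fold change was -0.87 ± 0.14 (unadjusted p = 0.000235, limma adjusted p = 0.0817). Rad51ap1 (chr6:126923050-126939587), whose product stimulates strand pairing, stood at 19.8, 18.9 and 13.3 FPKM with IgG2b and 8.10, 8.37 and 10.0 with DTA-1. All DTA-1 values were again below the lowest isotype value, and the log2 fold change was -0.88 ± 0.17 (limma adjusted p = 0.0956).

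Brca1 (chr11:101488764-101551955), the tumour suppressor that steers breaks into recombination, measured 11.3, 8.24 and 6.74 FPKM with IgG2b and 5.59, 4.68 and 4.83 with DTA-1. Bard1, its obligate partner in the ubiquitin ligase, stood at 7.89, 4.44 and 3.69 FPKM against 2.51, 2.56 and 2.28. The helicase gene Brip1, whose product binds the BRCT repeats of BRCA1, stood at 6.25, 4.31 and 3.26 FPKM against 2.87, 1.94 and 2.26. In these 3 genes IgG2b replicate 1 was the highest library and IgG2b replicate 3 the isotype library nearest to DTA-1, still without overlap. Their log2 fold changes were -0.67 ± 0.18, -0.82 ± 0.23 and -0.71 ± 0.21 (limma adjusted p = 0.161, 0.168 and 0.184). Palb2, the bridge between BRCA1 and BRCA2, and Brca2, the tumour suppressor that acts after it, were low transcripts, at 2.94 ± 1.03 and 4.07 ± 1.17 FPKM with IgG2b and 1.64 ± 0.0979 and 2.43 ± 0.190 with DTA-1 (SD, n = 3).

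Rad51c, Xrcc2 and Xrcc3 encode further strand exchange factors. Rad51c was the lowest member of all, at 2.11, 2.27 and 1.25 FPKM with IgG2b and 0.782, 1.02 and 0.954 with DTA-1, and the only one below 1 FPKM in any library. About 60 fragments stand behind its lowest value (exact Poisson 95% interval 45.8 to 77.2, which covers counting error only). Xrcc2 measured 6.16 ± 1.96 and 3.77 ± 0.410 FPKM, a log2 fold change of -0.56. Xrcc3, the member of the group with the smallest difference, measured 6.72, 4.66 and 5.04 FPKM against 4.34, 4.19 and 3.85. Its groups were close but did not overlap, and its log2 fold change was -0.32 ± 0.15 (unadjusted p = 0.0598), or -0.19 without IgG2b replicate 1.

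**Figure D2:**
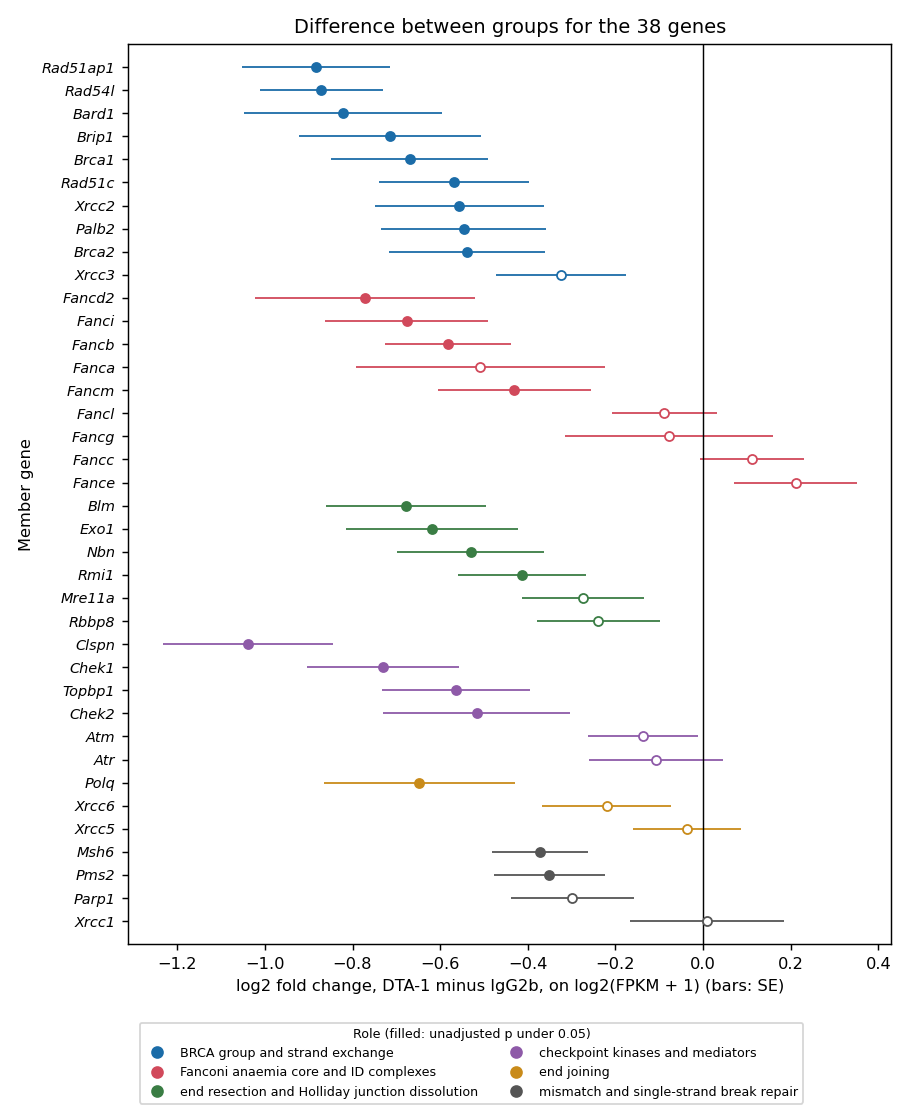
Log2 fold change of each of the 38 genes, DTA-1 minus IgG2b on log2(FPKM + 1), with the SE of the limma fit as bars; colours give the role and filled points an unadjusted p under 0.05. All 24 filled points lie left of 0, and Fance, Fancc and Xrcc1 are the 3 points right of it.

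The Fanconi genes were split, with 4 of 9 lower at an unadjusted limma p under 0.05. Fancd2 and Fanci, which encode the clamp that is ubiquitinated at crosslinks, were both lower without overlap. Fancd2 measured 10.4, 4.54 and 5.44 FPKM with IgG2b and 3.77, 3.14 and 3.13 with DTA-1, so IgG2b replicate 1 was far above the rest. Its log2 fold change of -0.77 ± 0.25 (limma adjusted p = 0.223) was -0.46 without that library. Fanci stood at 7.70, 4.83 and 4.41 FPKM against 2.96, 3.18 and 3.06, a difference of -0.68 ± 0.19 on the log2 scale (limma adjusted p = 0.168).

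Among the 7 genes of the core complex that ubiquitinates this clamp, Fancb and the translocase gene Fancm were lower at an unadjusted p under 0.05. Fancb, an X-linked scaffold subunit, measured 6.72, 6.75 and 5.01 FPKM with IgG2b and 3.50, 3.70 and 4.07 with DTA-1 (limma adjusted p = 0.146 for a log2 fold change of -0.58 ± 0.14), while Fancm measured 5.95 ± 1.46 and 4.09 ± 0.508 FPKM with overlapping values. Fancl, which encodes the ubiquitin ligase subunit and was the most abundant of the 9 Fanconi members, measured 7.94, 6.53 and 7.28 FPKM against 6.59, 6.94 and 6.68. Its groups overlapped, with a log2 fold change of -0.09 ± 0.12. Fance, the subunit that contacts FANCD2, was the member with the highest log2 fold change, 0.21 ± 0.14 (unadjusted p = 0.168): it stood at 5.86, 5.16 and 6.34 FPKM with IgG2b and 7.43, 7.38 and 5.80 with DTA-1, again with overlap. Fancc measured 5.22 ± 0.473 and 5.71 ± 0.161 FPKM. Fancg and Fanca varied widely within the isotype group, between 3.47 and 7.83 FPKM and between 3.40 and 9.23 FPKM, and did not reach an unadjusted p under 0.05.

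Of the 6 genes of end resection and of the dissolution of joined molecules, 4 were lower at an unadjusted limma p under 0.05 and 5 lay lower without overlap. Blm, the Bloom syndrome helicase, measured 18.7, 13.5 and 11.1 FPKM with IgG2b and 8.47, 7.71 and 9.24 with DTA-1. The groups were apart, and the log2 fold change was -0.68 ± 0.18 (limma adjusted p = 0.163). Rmi1, which encodes a partner of BLM, measured 10.6 ± 2.02 and 7.63 ± 0.275 FPKM, and the resection nuclease gene Exo1 5.31 ± 1.82 and 3.01 ± 0.239 FPKM. In the MRN complex, Nbn measured 10.1 ± 2.25 and 6.56 ± 0.546 FPKM, with a log2 fold change of -0.53. The nuclease subunit gene Mre11a was the most abundant of the group, at 24.3, 19.6 and 17.7 FPKM against 17.0, 15.7 and 17.4. Its highest DTA-1 value lay just under the lowest isotype value, and the log2 fold change of -0.27 ± 0.14 (unadjusted p = 0.0839) was -0.15 without IgG2b replicate 1. Rbbp8, which encodes the resection cofactor CtIP, stood at 15.7 ± 2.39 and 13.0 ± 0.951 FPKM, with overlap.

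Clspn had the largest difference of all 38 genes. The gene (chr4:126556935-126593903) encodes claspin, the adaptor that brings CHEK1 to ATR at stalled forks. It measured 24.99, 20.9 and 14.4 FPKM with IgG2b and 9.58, 7.97 and 9.65 with DTA-1, and the DTA-1 mean was 45.1% of the isotype mean. The groups did not overlap and the log2 fold change was -1.04 ± 0.19 (unadjusted p = 0.000643, limma adjusted p = 0.0923). Chek1 itself, the effector kinase that holds back mitosis, measured 11.99, 10.4 and 7.53 FPKM against 5.68, 4.88 and 5.998, with a difference of -0.73 ± 0.17 on the log2 scale (limma adjusted p = 0.140). Topbp1, the activator of ATR and the most abundant of the 6 checkpoint members, stood at 53.4, 40.9 and 34.6 FPKM against 31.2, 25.5 and 28.4. It too was lower without overlap (limma adjusted p = 0.195 for a log2 fold change of -0.56 ± 0.17), whereas Chek2, at 5.48 ± 1.64 and 3.49 ± 0.877 FPKM, overlapped.

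The apical kinases showed small differences. Atr measured 10.8, 9.50 and 7.34 FPKM with IgG2b and 9.01, 7.68 and 8.47 with DTA-1, a log2 fold change of -0.11 ± 0.15 (unadjusted p = 0.503), with the DTA-1 values inside the isotype range. Atm, the kinase that answers double-strand breaks, measured 11.0 ± 1.36 and 9.88 ± 0.431 FPKM (log2 fold change -0.14 ± 0.13). The ratio of Chek1 to Atr within each library, which no scaling between libraries can change, was 1.12, 1.09 and 1.03 with IgG2b and 0.631, 0.636 and 0.708 with DTA-1. This was 1 of 3 ratios computed, chosen after the values were seen. These ratios did not overlap between groups. They are a description: an exact permutation test gave p = 0.1 for each of the 3 ratios. That is the smallest value that 3 against 3 libraries can give, so the test cannot decide. The ratios of Fancd2 to Fancl (0.917 ± 0.339 and 0.498 ± 0.0650) and of Polq to Xrcc5 (0.362 ± 0.171 and 0.194 ± 0.0268) did not overlap either (SD, n = 3).

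End joining, which seals breaks without a template, held members of both kinds. Polq, the polymerase of microhomology-mediated joining, measured 6.21, 4.02 and 2.92 FPKM with IgG2b and 2.67, 2.08 and 2.26 with DTA-1. Its groups did not overlap, and its log2 fold change of -0.65 ± 0.22 (limma adjusted p = 0.235) was -0.41 without IgG2b replicate 1. The Ku subunits were nearer to equal. Xrcc6, which encodes Ku70, stood at 33.4, 30.8 and 24.9 FPKM against 28.9, 23.1 and 23.9, and Xrcc5, which encodes Ku80, at 11.1, 14.1 and 12.1 FPKM against 11.9, 11.7 and 12.5. Both overlapped, with log2 fold changes of -0.22 ± 0.15 and -0.04 ± 0.12, and that of Xrcc5 was 0.05 without IgG2b replicate 2. The Xrcc6 difference was -0.13 without IgG2b replicate 1 and -0.34 without IgG2b replicate 3.

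In mismatch repair, Msh6, a subunit of the mismatch sensor, measured 41.7, 43.4 and 38.3 FPKM with IgG2b and 33.2, 30.6 and 30.8 with DTA-1. This was a small but even difference (log2 fold change -0.37 ± 0.11, unadjusted p = 0.00864, limma adjusted p = 0.184), with IgG2b replicate 2 rather than replicate 1 highest. Pms2, the nuclease subunit downstream of it, measured 13.8 ± 1.63 and 10.6 ± 0.592 FPKM, also without overlap. In single-strand break repair, Parp1, the sensor of nicked DNA, was the most abundant of all members, at 69.8, 56.3 and 50.9 FPKM against 51.0, 44.9 and 46.4. DTA-1 replicate 1 lay just above the lowest isotype library, and the log2 fold change of -0.30 ± 0.14 (unadjusted p = 0.0655) was -0.17 without IgG2b replicate 1. Xrcc1, the scaffold that PARP1 recruits, was level: 20.5, 13.4 and 15.3 FPKM against 19.3, 15.1 and 14.8, with a log2 fold change of 0.01 ± 0.18 that turned negative in several alternatives.

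**Figure D3:**
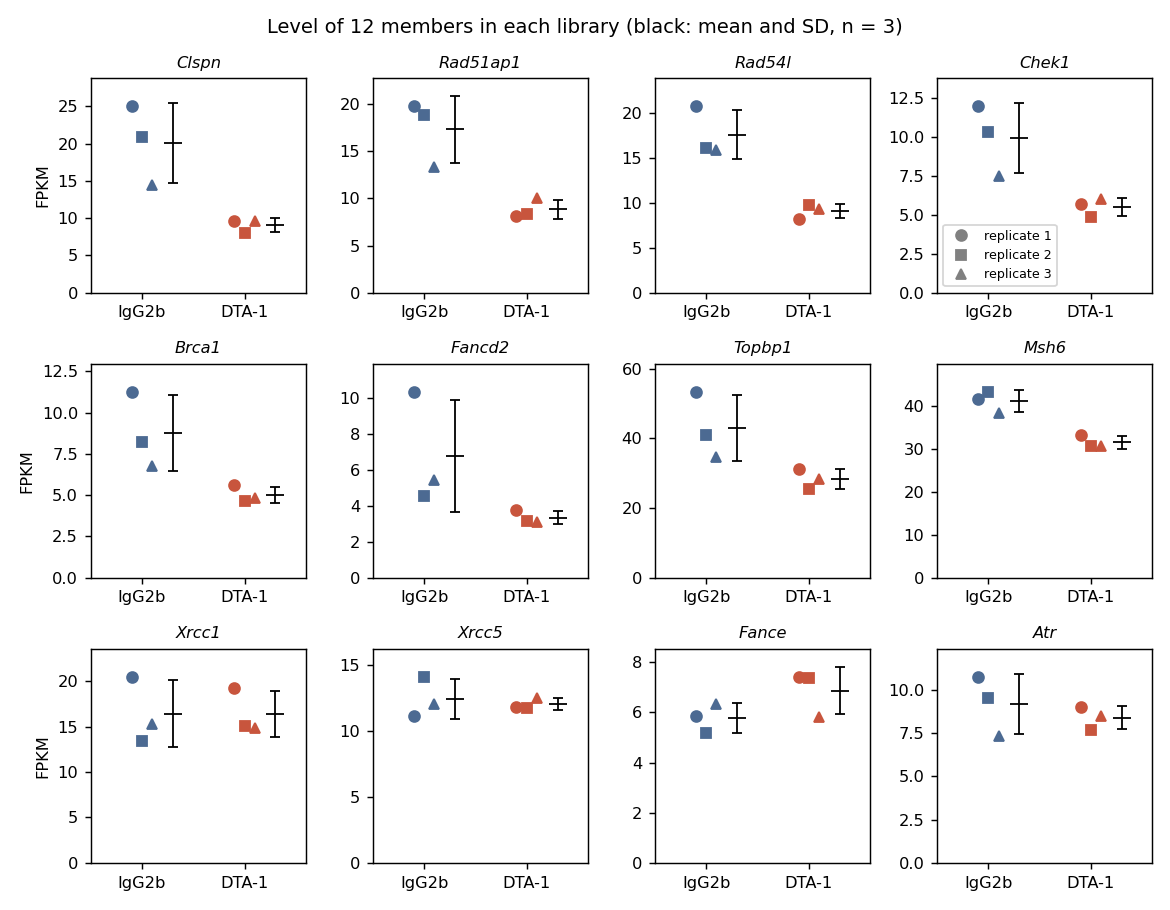
FPKM of 12 members in each library (symbols give the replicate number, black lines the mean and SD, n = 3); each axis starts at 0. The first 8 panels, Clspn to Msh6, have every DTA-1 value below every IgG2b value, and the last 4, Xrcc1, Xrcc5, Fance and Atr, overlap.

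The members' promoters were searched for E2F letters, the site of the transcription factors that switch on S phase genes. RefSeq windows of 300 bases (250 before and 50 after the transcription start, build GRCm38.p6) existed for 33 of the 38 genes. The letters TTTCCCGC, TTTGGCGC, TTTCGCGC and TTTGCCGC were searched on both strands. A match was found in 10 of the 33 members (30.3%), against 5.01% of the tested genes with a window and 2.61% of all genes with one: Bard1, Brca2, Rad51c, Fancg, Rmi1, Chek2, Clspn, Topbp1, Xrcc6 and Msh6. Of these 10, 8 were lower at an unadjusted p under 0.05, with a median log2 fold change of -0.53, and of the 23 without a match 12 were, with a median of -0.43. Of all tested genes with a match 17.3% were lower, with a median of -0.06. CCAAT, the letters bound by NF-Y, were in 22 of 33 members (66.7%) and in 43.4% of tested genes. Here 13 of the 22 were lower, with a median of -0.42, and 7 of the 11 without a match, with a median of -0.56. Of all tested genes with CCAAT 9.63% were lower, with a median of -0.00416. TTTGAA, the core of the cell cycle homology region, was in 2 members (6.06%) and 14.0% of tested genes. No motif overlaps another in the matches below, and a match is a description of letters, not a measured site.

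The following 5 windows, 5′ to 3′, show the largest difference with a match (Clspn), 2 further matched genes that were lower (Bard1, Topbp1), a matched gene with overlapping groups (Xrcc6) and the gene with the smallest p, which has no match (Rad54l). Capitals mark the E2F letters, and GCGCGAAA and GCGGGAAA are the same letters read on the other strand.
Clspn (chr4:126556730-126557029, plus strand): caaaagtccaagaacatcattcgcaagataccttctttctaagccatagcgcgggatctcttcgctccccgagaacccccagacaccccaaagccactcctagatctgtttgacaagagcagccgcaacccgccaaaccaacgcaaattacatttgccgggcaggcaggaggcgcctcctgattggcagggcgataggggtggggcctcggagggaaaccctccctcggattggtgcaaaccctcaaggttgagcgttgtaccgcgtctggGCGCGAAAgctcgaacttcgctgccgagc
Bard1 (chr1:71102923-71103222, minus strand): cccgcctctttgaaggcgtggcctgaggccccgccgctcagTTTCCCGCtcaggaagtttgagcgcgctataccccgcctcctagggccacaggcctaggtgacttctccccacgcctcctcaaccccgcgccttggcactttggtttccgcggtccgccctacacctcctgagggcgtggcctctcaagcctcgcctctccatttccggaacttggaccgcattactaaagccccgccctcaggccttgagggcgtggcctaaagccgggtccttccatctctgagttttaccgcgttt
Topbp1 (chr9:103305077-103305376, plus strand): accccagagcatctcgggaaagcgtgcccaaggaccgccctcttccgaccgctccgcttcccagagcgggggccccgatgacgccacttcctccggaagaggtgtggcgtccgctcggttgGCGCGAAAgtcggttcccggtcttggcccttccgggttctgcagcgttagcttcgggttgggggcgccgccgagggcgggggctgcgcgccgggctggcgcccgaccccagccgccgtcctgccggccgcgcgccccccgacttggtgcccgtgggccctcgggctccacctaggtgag
Xrcc6 (chr15:82016119-82016418, plus strand): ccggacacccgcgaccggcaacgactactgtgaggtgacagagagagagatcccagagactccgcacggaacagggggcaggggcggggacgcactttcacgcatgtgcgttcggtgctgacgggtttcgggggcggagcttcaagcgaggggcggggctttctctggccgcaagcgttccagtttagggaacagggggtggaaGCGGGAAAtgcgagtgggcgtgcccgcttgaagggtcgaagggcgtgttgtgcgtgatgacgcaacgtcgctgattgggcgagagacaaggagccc
Rad54l (chr4:116123641-116123940, minus strand): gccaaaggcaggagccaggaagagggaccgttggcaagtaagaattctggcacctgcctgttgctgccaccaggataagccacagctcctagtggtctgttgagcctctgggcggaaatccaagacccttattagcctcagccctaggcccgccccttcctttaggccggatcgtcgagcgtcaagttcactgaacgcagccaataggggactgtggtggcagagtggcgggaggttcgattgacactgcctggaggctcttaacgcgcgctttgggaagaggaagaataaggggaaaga
Counted from 1 at the start, the match begins at 22 in Clspn, and, counted back from the start, at -209 in Bard1, -129 in Topbp1 and -46 in Xrcc6. RefSeq lists 2 windows for Rad54l, 1 base apart, and the first is shown.

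A wider list of repair genes, of which n = 146 were tested, was also examined. At an unadjusted limma p under 0.05, 29 were lower and 4 higher (19.9% lower, against 7.73% of all tested genes), the median log2 fold change was -0.07, and none passed the adjusted threshold. Without IgG2b replicate 1, 22 were lower and 4 higher. Other recombination genes held 14 of the 29 lower ones among 36, and 10 were lower without IgG2b replicate 1. Rpa2, a subunit of the single-strand binding protein, stood at 37.2 ± 2.97 and 23.8 ± 0.547 FPKM. Swi5, the most abundant of that list, was at 199 ± 6.002 and 202 ± 10.4 FPKM.

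The remaining lists held the other 15 lower genes, at an unadjusted limma p under 0.05 that 7.73% of all tested genes reached as lower. Of 12 other Fanconi genes 3 were lower, Ube2t, Usp1 and Apitd1: Usp1, the protease that removes ubiquitin from FANCD2, measured 54.9 ± 8.21 and 38.2 ± 3.17 FPKM, and Apitd1, which encodes a FANCM partner, 13.9 ± 0.614 and 9.30 ± 1.10 FPKM. Stra13, the most abundant of them, stood at 55.4 ± 14.2 and 47.1 ± 3.55 FPKM. Of 19 base excision repair genes 4 were lower, among them the ligase gene Lig1 (72.4 ± 10.3 and 42.8 ± 2.11 FPKM) and the uracil glycosylase gene Ung (21.2 ± 1.41 and 14.7 ± 0.586 FPKM). Of 14 double-strand break response genes 1 was lower (Rnf168, 7.14% of the list, near the share of all tested genes). Of 13 translesion and tolerance genes 2 were lower (Hltf and Zranb3), and of 8 other end-joining genes none. Without IgG2b replicate 1, 0 of the 14 and 1 of the 13 were lower. Among the latter the ligase cofactor gene Xrcc4 measured 9.49 ± 2.41 and 7.38 ± 0.574 FPKM, Polm 6.61 ± 2.12 and 8.47 ± 0.915 FPKM and Lig3 9.27 ± 2.04 and 10.4 ± 1.03 FPKM.

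Nucleotide excision repair, which removes bulky lesions, held 2 genes higher at an unadjusted limma p under 0.05 and no lower one among 19 (6.22% of all tested genes were higher), and 1 higher without IgG2b replicate 1. Xpc lay lower without overlap, at 9.21 ± 0.136 and 8.71 ± 0.247 FPKM. Ercc1 measured 17.7, 17.2 and 23.0 FPKM with IgG2b and 22.9, 28.1 and 25.9 with DTA-1, with overlap, and the helicase gene Ercc3 24.3 ± 3.17 and 31.2 ± 2.92 FPKM, without overlap. Ddb1, the lesion sensor subunit and most abundant of the list, stood at 221 ± 17.1 and 230 ± 9.10 FPKM. For Ercc1 and Ercc3 the limma adjusted p was 0.276 and 0.288. Of 20 other checkpoint genes 4 were lower (Timeless, Tipin, Cdc25b and Cdc25c) and 2 higher. The higher ones were Cdkn1a, the p53 target that inhibits cyclin-dependent kinases (339 ± 27.8 and 554 ± 97.6 FPKM, limma adjusted p = 0.108), and Gadd45b, a stress gene, which measured 35.3, 39.7 and 45.1 FPKM against 75.6, 62.1 and 59.4 (limma adjusted p = 0.102 for a log2 fold change of 0.70 ± 0.14). Trp53, which encodes p53, stood at 147 ± 31.1 and 158 ± 19.8 FPKM (unadjusted p = 0.512).

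Proliferation transcripts were lower in the same libraries. Of 36 S phase genes 31 were lower at an unadjusted p under 0.05, with a median log2 fold change of -0.64, and of 26 G2 and mitosis genes 23, with a median of -0.97. Over all tested genes 7.73% were lower. Without IgG2b replicate 1, 28 and 20 genes of these lists were lower, with medians of -0.49 and -0.59, where 7.10% of all genes then were. No gene of either list passed the adjusted threshold in the main fit (smallest limma adjusted p = 0.0817). The sliding clamp gene Pcna measured 331, 311 and 260 FPKM with IgG2b and 175, 178 and 187 with DTA-1. The replicative helicase gene Mcm5 stood at 83.0 ± 17.1 and 48.9 ± 1.34 FPKM, the proliferation marker Mki67 at 71.0 ± 38.5 and 32.4 ± 6.44, and the mitotic kinase gene Cdk1 at 22.2 ± 11.2 and 11.0 ± 0.550. On the log2 scale and relative to the mean of all libraries, the average member stood at 0.49, 0.17 and 0.01 in the IgG2b libraries and at -0.16, -0.27 and -0.24 in the DTA-1 libraries. The S phase average in the same libraries was 0.63, 0.17, 0.12, -0.28, -0.34 and -0.30, and the average over the wider repair list 0.16, 0.03, -0.00137, -0.04, -0.09 and -0.06. All 4 lists, the G2 and mitosis genes included, ranked the 6 libraries in the same order. The part of proliferation in the members' differences was not tested.

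**Figure D4:**
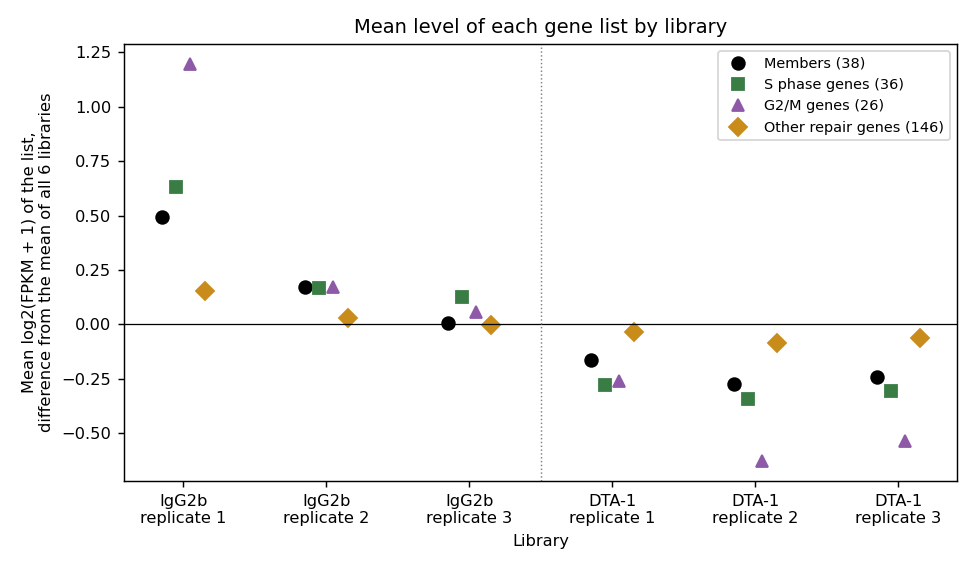
Mean log2(FPKM + 1) of 4 gene lists in each library, minus the mean over all 6 libraries (number of genes in brackets). The 38 members lie from 0.49 in IgG2b replicate 1 to -0.27 in DTA-1 replicate 2, between the wider repair list and the S phase genes in every library but IgG2b replicate 2.

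Exon bases are shared with a gene on the opposite strand in 13 members, from 0.382% of the exon bases of Brca2 to 17.0% of those of Fancl. The use of strand in the deposited values is not given in the sources used here. On the same strand, Pms2 shares 6.62% of its exon bases with Gm42421 and 1.06% with Rsph10b, and Parp1 0.181% with Mir6904. With library quality weights in limma, 7 members passed the adjusted threshold (Brca1, Chek1, Clspn, Fancd2, Msh6, Rad51ap1 and Rad54l), along with 314 lower and 161 higher genes in all.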

How the data were processed

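The authors deposited 1 table per library, with 1 value for each gene symbol. The unit is not named; the deposited values were treated as FPKM, since they hold decimals, total between 574195 and 606724 in each library and have smallest steps that shrink as transcripts lengthen. The submitters' processing notes name TopHat and mm10; for the quantifier, annotation and use of strand, the sources used here give nothing. Per the labels' protocols, 1.3 ug of total RNA per library entered a directional kit.

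The 10501 genes that reached 1 FPKM in 3 or more libraries, all 38 members among them, entered limma 3.58.1 (R 4.3.3) as log2(FPKM + 1) values (trend and robust moderation, group as the single term, 2-sided, Benjamini-Hochberg over all genes tested, threshold 0.05). Fold changes on this scale understate low genes. The members and lists were chosen with earlier results of these data known. Named members are, per role, the most abundant and those with the lowest and highest fold change, and the 10 smallest p-values; other values are given to account for all 38. Wider lists are named by their 2 smallest p-values and highest mean; further names complete a count and were chosen after the values were seen. Groups and replicate numbers came from the titles; treatment tags that number the antibodies differently were not used. No library was a copy of another: the median squared difference between libraries of a group was 5.34 to 42.7 times that of counting noise. The fit was tested on simulated data. Some single genes of the wider lists are not reported here. Lengths and exon overlaps came from GENCODE M21 (GRCm38), promoters from RefSeq GRCm38.p6. Figures used matplotlib 3.10.9.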

Additional observations from a re-analysis of the deposited data

How the results depend on the processing

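Under 15 alternatives no member was higher at an unadjusted p under 0.05, and the count of lower members stayed within 1.5 times the 24 reported, except for 13 with a mean of at least 5 FPKM, which left 25 members tested; the count without overlap was then 13 too. With each library left out in turn, 18 to 27 members were lower at an unadjusted p under 0.05 and none passed the adjusted threshold. The median log2 fold change lay between -0.67 and -0.35. Without overlap, 24 to 31 were lower and 0 to 1 higher. Leaving a library out cannot reduce these counts, so their lower ends were fixed in advance. Over all genes, 0 to 3 were then higher and 0 to 1 lower past the adjusted threshold. The median was -0.30 with a pseudocount of 5 FPKM, which shrinks low genes by construction. Without a filter 1 gene was higher over all genes, and with equal totals 2 were lower. Library quality weights gave 161 higher and 314 lower genes and 7 lower members; the cause was not tested. No scaling moved the median of all genes by over 0.1 on the log2 scale.

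Same-numbered libraries did not deviate together throughout (correlations of deviations from the group means 0.393, -0.101 and -0.129), and number 2 and 3 libraries did not correlate best with their own number. The number 1 libraries did correlate best with each other. Fits without IgG2b replicate 1 kept DTA-1 replicate 1, the DTA-1 library with the highest average of the members (-0.16), and the effect of keeping it was not tested. IgG2b replicate 2 correlated best with DTA-1 replicate 3 (0.485), and IgG2b replicate 3 with DTA-1 replicate 2 (0.385). A block by replicate number does not follow these pairs. With the replicate number as a block, 59 genes were higher and 126 lower, and 3 members, Clspn, Rad51ap1 and Rad54l, passed the adjusted threshold.

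Directions near 0 turned: Xrcc1 was -0.0218 with equal totals, -0.0532 with library quality weights and between -0.12 and 0.17 with a library left out, Atr lay between -0.245 and 0.00232, the latter without IgG2b replicate 1, and Xrcc5 between -0.107 and 0.0517, the latter without IgG2b replicate 2. Depth limits Rad51c most.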
